A study of Mus musculus with 14 samples.

Results

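Heat shock proteins and their DnaJ cochaperones were followed through bulk RNA-Seq of the mouse esophagus. Members were taken by symbol, as every gene whose name matched the HSP90, HSP70 (including the HSP110 branch), small heat shock protein, HSP60 and HSP10 series or the DnaJ A, B and C series, with symbols containing "-ps" (pseudogenes) set aside. This gave 72 members among 55291 symbols, of which 27 were heat shock proteins and 45 were DnaJ proteins. The 27 comprised 3 HSP90 genes, 11 HSP70 genes, 3 genes of the HSP110 branch, 8 small heat shock protein genes and the chaperonin pair Hspd1 and Hspe1. The 45 comprised 4 Dnaja, 13 Dnajb and 28 Dnajc genes. Another 4 symbols that matched the names were left out as pseudogenes.

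All 14 samples came from wild-type C57BL/6 mice, with no allele or agent added. Epithelium peeled from the esophagus was sequenced from 5 aged mice (O1, O2, O3, OF5 and OM8, at least 18 months old) and 4 young mice (Y1, Y3, YF5 and YM4, at most 4 months old). Stroma came from 5 of these mice, 3 aged (O1, O2, O3) and 2 young (Y1, Y3). To obtain an epithelium-enriched layer, the paper describes taking off the muscle layer with forceps. The labels give a sex for 3 of the 9 mice only, so sex could not be compared.

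Chaperones of the HSP70 family bind unfolded stretches of other proteins in a cycle driven by ATP. DnaJ proteins bring the clients and switch on the ATPase of HSP70, proteins of the HSP110 branch release the spent nucleotide, HSP90 finishes the folding of kinases and receptors, and small heat shock proteins hold unfolded proteins without using ATP. Heat shock factor 1 (HSF1) switches on a subset of these genes, led by Hspa1a and Hspa1b, when unfolded proteins pile up in the cytosol, while a separate signal from the endoplasmic reticulum (ER) raises the ER chaperones. In skeletal muscle several small heat shock proteins are part of the normal make-up of the fiber, and the muscle coat of the mouse esophagus is largely skeletal muscle.

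Upstream sequences are shown first for a few members whose windows hold the elements by which inducible and ER chaperones are known to be switched on. RefSeq promoter windows (GRCm38.p6, 250 bases before to 50 after each start) were found for 58 of the 72 members. The repeats of a heat shock element, searched as GAANNTTC or TTCNNGAA on both strands, were in 16 of these 58 (27.6%) against 16.97% of 27025 genes. The 16 were Hspa1a, Hspa1b, Hsph1, Hspd1, Hspe1, Hspb1, Hspb3, Hspb6, Hspb8, Dnaja1, Dnaja4, Dnajb4, Dnajb6, Dnajc10, Dnajc27 and Dnajc5g, so members lower in epithelium such as Hspb6 and Dnajc27 were among them. The letters were not in the windows of Dnajb1, and Hsp90aa1 and Hspa8 were among the members without a window. A run of 3 repeats, GAANNTTCNNGAA or TTCNNGAANNTTC, was in 4 of 58 (6.90%; Dnajb6, Hspd1, Hspe1 and Hsph1) against 0.662% of all genes. Each longer run contains the shorter one. In the lines below the capitals mark these repeats, and the stretch given for Hspa1a (chr17:34972217-34972306, minus strand) was the same base for base as that of Hspa1b (chr17:34959299-34959388, minus strand). Over the whole 250 bases before the start these 2 genes shared 247 bases (98.8%).
Hspa1a: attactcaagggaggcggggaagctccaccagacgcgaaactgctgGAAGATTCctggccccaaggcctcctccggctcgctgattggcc
Hspb1 (chr5:135887769-135887858, plus strand): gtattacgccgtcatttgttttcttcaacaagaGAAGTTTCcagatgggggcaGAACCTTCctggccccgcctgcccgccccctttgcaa
Hspe1 (chr1:55088053-55088082, plus strand): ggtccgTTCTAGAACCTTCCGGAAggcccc
The Hspe1 stretch lies between the start sites of Hspe1 and Hspd1, which run in opposite directions and share it.

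The ER stress response element, searched as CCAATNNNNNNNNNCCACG on both strands, was in 3 of the 58 members (5.17%) against 0.137% of all genes. These 3 were Hspa5 (BiP, the HSP70 of the ER), Hsp90b1 (GRP94, the HSP90 of the ER) and Dnajc3 (P58IPK, an ER cochaperone of BiP), shown with the element in capitals.
Hspa5 (chr2:34772019-34772048, plus strand): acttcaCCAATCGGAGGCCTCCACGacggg
Hsp90b1 (chr10:86705602-86705691, minus strand): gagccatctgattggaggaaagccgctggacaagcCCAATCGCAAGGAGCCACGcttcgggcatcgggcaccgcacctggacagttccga
Dnajc3 (chr14:118937792-118937881, plus strand): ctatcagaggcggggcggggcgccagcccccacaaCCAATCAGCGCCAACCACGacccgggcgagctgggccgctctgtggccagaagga
A match is a description of the letters and does not show that a factor binds there.

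Total counts ran from 8217516 to 21867101 per sample. The epithelial libraries of OF5, OM8, YF5 and YM4, whose mouse codes carry a second letter and which have no stroma, stood apart. A single abundant non-coding locus, CT010467.1, took 63.9% to 73.9% of their counts, against 10.4% to 23.3% in the other 5 epithelial samples and 1.47% to 1.88% in stroma. The members drew 4173 to 6325 counts in each of these 4 libraries, against 82756 to 186641 in the other epithelial samples. Results that rest on them are therefore given with all 9 epithelial samples and again for the 5 mice with both layers. The layers matched their labels, since 8 epithelial markers such as Krt4, Krt13 and Krt5 were all higher in epithelium, and 10 skeletal muscle markers such as Ttn, Acta1 and Ckm were all higher in stroma. Fibroblast markers were less well parted: their sum was 279 to 629.7 normalized counts (CPM on the TMM-adjusted library size) in epithelium and 413 to 1026 in stroma. Smooth muscle markers overlapped as well, with sums of 332 to 831 in epithelium and 301 to 2042 in stroma.

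Levels between genes were compared as normalized counts per kilobase of exon. Hsp90ab1, the constitutive HSP90 of the cytosol, had the highest median of the 72 members in both layers, at 295 per kilobase in epithelium (126 to 604, n = 9) and 354 in stroma (334 to 442, n = 5). It made up a median of 29.1% of the members' summed level per kilobase in epithelium and 28.4% in stroma. Hspb1 (HSP25, a small heat shock protein that protects actin filaments) was the second in epithelium, at 175 per kilobase (112 to 331), and the third in stroma, at 109 (80.8 to 126). Its median share of the members' sum was 18.7% in epithelium and 7.63% in stroma. Hspa8 (HSC70, the constitutive HSP70) was at 59.7 per kilobase in epithelium (18.6 to 163) and 90.9 in stroma (77.3 to 110.3). In stroma Hspb6 stood between Hsp90ab1 and Hspb1 and Hspb7 between Hspb1 and Hspa8. In epithelium the ranges of Hsp90ab1, Hspb1 and Hspa8 overlapped.

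Between the layers, 29 of the 63 members with enough counts to test differed, 6 higher and 23 lower in epithelium than in stroma (edgeR quasi-likelihood test, Benjamini-Hochberg adjusted p under 0.05, 9 against 5 samples). All genes tested gave 26.1% higher and 30.1% lower. The 6 were Dnajb1, Hspa5, Hspb1, Dnajc7, Dnajc5 and Hspa14, and the lower group held most small heat shock proteins, 4 HSP70 genes and 13 DnaJ genes. The median log2 difference of the 63 members, epithelium minus stroma, was −0.25, against −0.05 over all genes. In the 5 mice with both layers the count of members higher in epithelium was 18 (all genes 28%) and of members lower 21 (all genes 28.3%). With mouse as a replicate block it was 16 (all genes 27.5%) and 17 (all genes 24%). All 6 members higher over 14 samples were among the 18, and 20 of the 23 lower members were among the 21. The replicate block kept 5 of the 6 and 17 of the 23. No called member was called on the other side in either fit. In tissue of this kind, fewer cells of a type and less RNA per cell cannot be told apart.

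**Figure D1:**
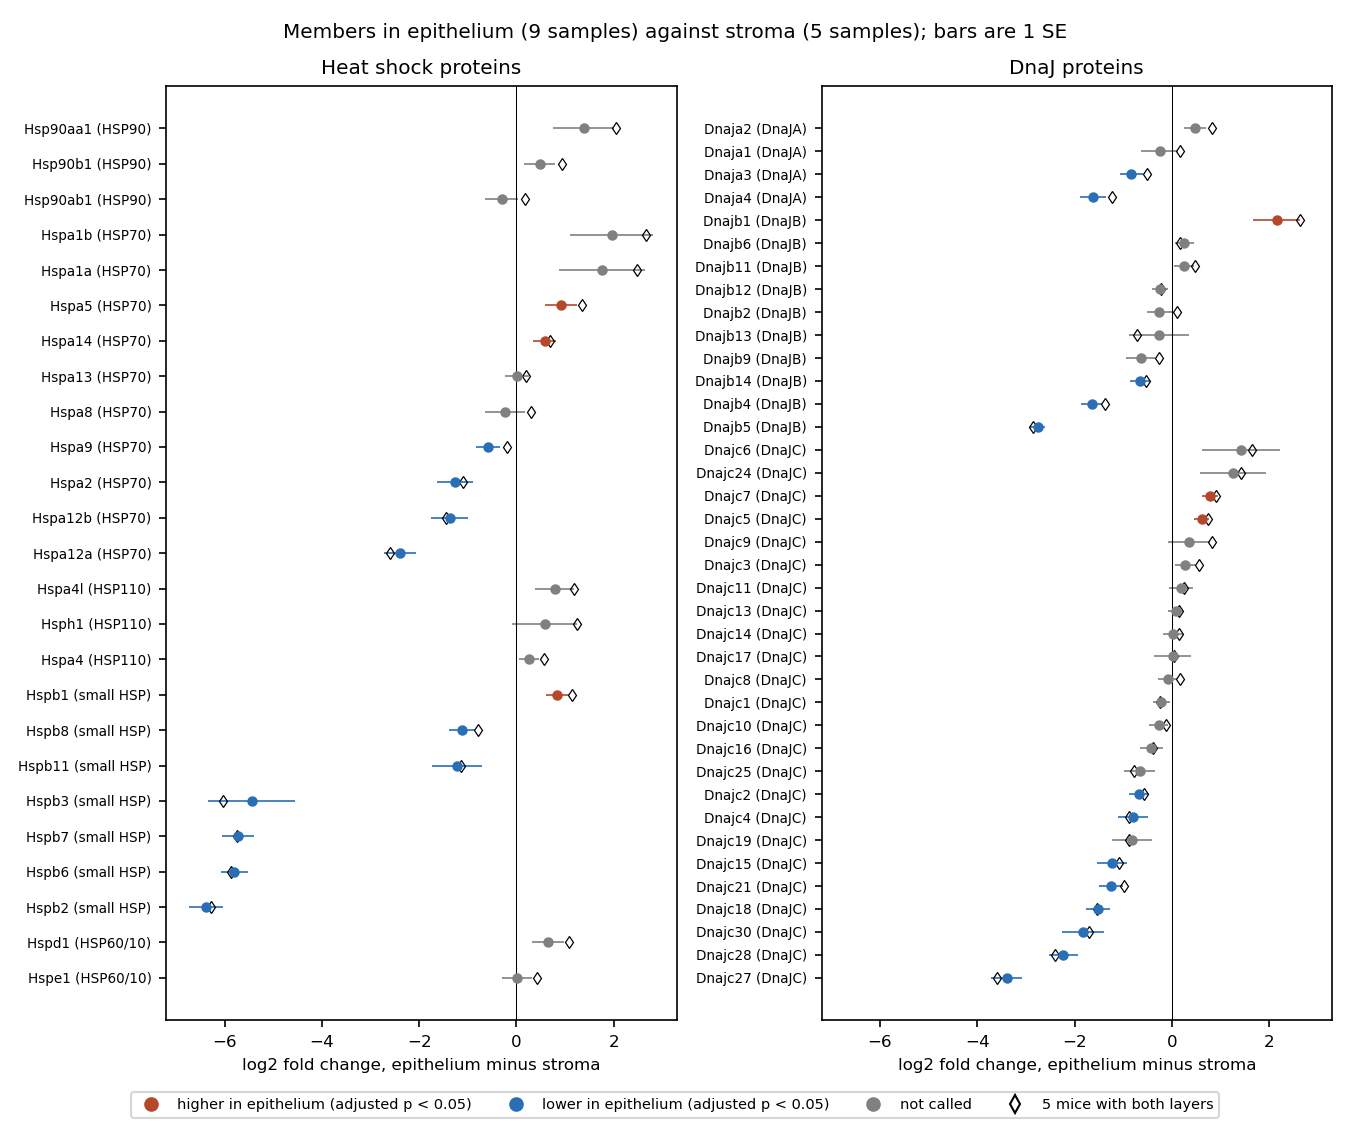
Log2 fold change of the 63 tested members, epithelium minus stroma, by family, with 1 standard error. Colored circles are members past the adjusted p threshold over all 14 samples, and open diamonds are the same difference in the 5 mice with both layers. Hspb2, Hspb6, Hspb7 and Hspb3 lie below −5, while Dnajb1 at 2.15 is the highest called member.

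The small heat shock proteins gave the widest differences. Of 7 tested, 6 were lower in epithelium and 1, Hspb1, was higher (all genes 30.1% and 26.1%). Hspb6 (HSP20, abundant in muscle) was at 4.46 to 16.6 normalized counts in the 9 epithelial samples, with a median of 8.96. In stroma it was at 634, 475, 469.6, 542 and 416 in O1, O2, O3, Y1 and Y3. Every stromal sample was above every epithelial sample, and the log2 difference was −5.80 ± 0.28 (SE), a 55.7-fold lower level in epithelium (edgeR adjusted p = 2.48e-12). Hspb7 (cvHSP, of heart and skeletal muscle) was at 1.88 to 12.0 in epithelium, with a median of 3.59. It was at 295, 315, 235, 279.9 and 199.8 in the same order of stromal samples, again without overlap (log2 difference −5.72 ± 0.33, adjusted p = 1.99e-11, edgeR).

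Hspb2 and Hspb3, which form a complex with each other in muscle, were far less abundant. Hspb2 was at 0 to 0.415 normalized counts in epithelium and at 15.8, 19.2, 17.6, 10.3 and 9.34 in stroma, without overlap. Its log2 difference was −6.38 ± 0.34 (edgeR adjusted p = 6.44e-12). Hspb3 had no read in 6 of the 9 epithelial samples and was at 5.17, 3.27, 1.18, 5.14 and 3.29 in stroma. One epithelial sample, YF5, was at 1.24 from 3 counts and overlapped with stroma. The log2 difference was −5.44 ± 0.90 (edgeR adjusted p = 3.11e-05). Exons of Hspb2 (chr9:50751078-50752354) share 24.4% of their 50-base words with the neighboring Cryab, the small heat shock protein alpha-B crystallin, so reads there may belong to either gene.

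Hspb8 (HSP22, which works with Bag3 in clearing damaged filament proteins) showed a smaller difference. It was at 27.8 to 118 in epithelium, with a median of 62.3, and at 181, 152, 167, 126 and 103 in stroma. The groups overlapped through the epithelium of Y1, and the log2 difference was −1.12 ± 0.27 (edgeR adjusted p = 0.00137). Hspb11 (IFT25, a part of the ciliary transport train and not a classical chaperone) was at 0 to 2.06 in epithelium and 0.533 to 7.49 in stroma. Its call rested on few counts: the log2 difference was −1.22 ± 0.51 (edgeR adjusted p = 0.0495), and in the 5 mice with both layers the adjusted p was 0.108.

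Hspb1 (chr5:135887919-135889563) ran the other way. It was at 115 to 341 normalized counts in epithelium, with a median of 181, and at 130.2, 103, 112, 113 and 83.3 in stroma. The epithelial samples of OM8 and YM4 lay within the stromal range, and the log2 difference was 0.84 ± 0.24 (edgeR adjusted p = 0.00597). In each of the 5 mice with both layers the epithelium was above the stroma, by 1.57 to 3.02 times. Of its 50-base exon words 50.1% also occur in other genes, chiefly the pseudogene Hsp25-ps1.

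Hspb2, Hspb3, Hspb6 and Hspb7 were lower in epithelium, as were the muscle markers. The 10 skeletal muscle markers summed to 160.4 to 1539 normalized counts in epithelium and 37883 to 69532 in stroma, 0 of the 10 were at 0 throughout a layer, and all 10 were called lower in epithelium with log2 differences of −7.39 to −4.53. Among the epithelial samples, YF5 held the highest sum (1539), the highest Hspb6 (16.6) and the highest Hspb7 (12.0). The order did not hold for all samples. In epithelium OF5 had a sum of 192 with Hspb6 at 9.95, and O1 a sum of 426 with Hspb6 at 5.87. In stroma O3 had the lowest sum (37883) with Hspb2 at 17.6, and Y1 had 60663 with Hspb2 at 10.3. The part of muscle RNA in these differences was not tested.

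**Figure D2:**
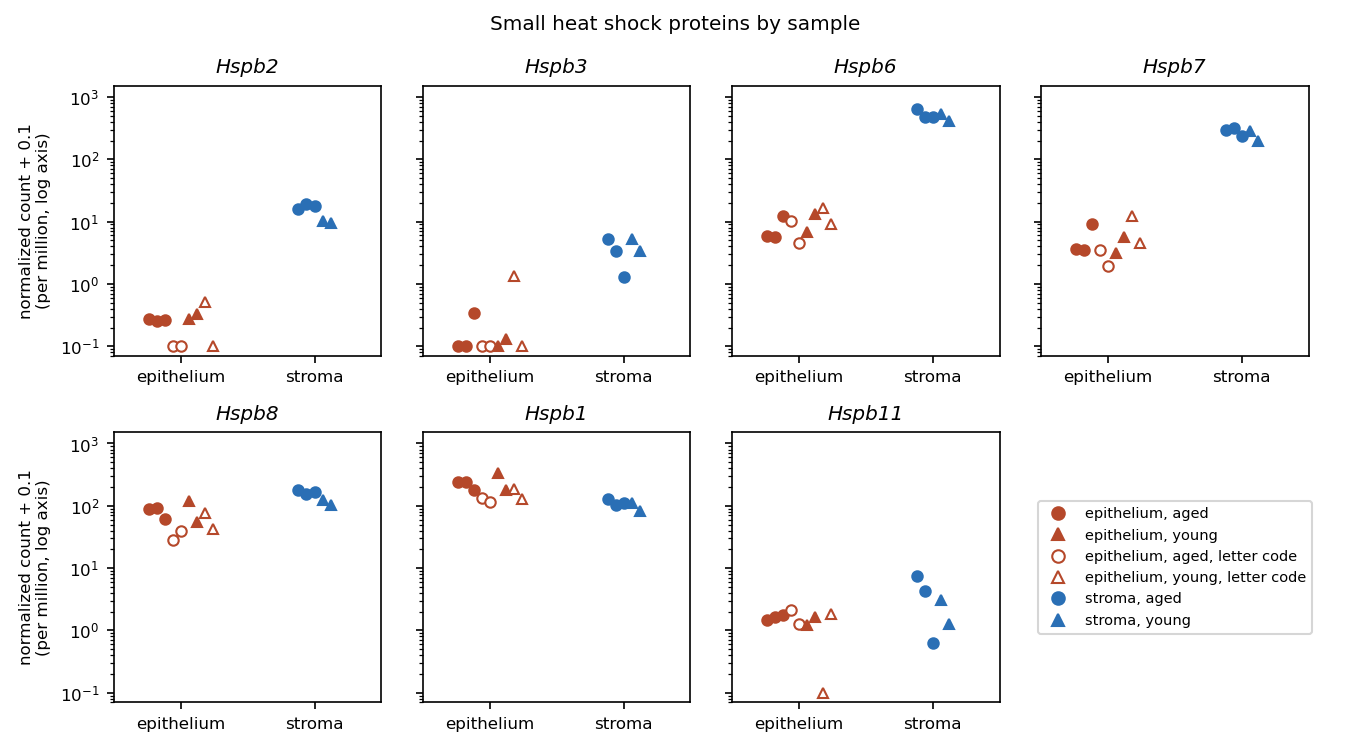
Normalized counts (plus 0.1, log axis) of the 7 tested small heat shock proteins in each epithelial sample (red) and stromal sample (blue), with circles for aged and triangles for young mice and open symbols for the mice with letter codes. Hspb6 and Hspb7 sit at or under 16.6 in epithelium and at or above 199.8 in stroma, whereas Hspb1 is mostly higher in epithelium.

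Among the genes that HSF1 is known to switch on, a list of 10 (Hspa1a, Hspa1b, Hsph1, Dnajb1, Hsp90aa1, Hspb1, Hspa8, Hspd1, Hspe1 and Dnaja1), 8 had a positive difference and 2, Dnajb1 and Hspb1, were called higher in epithelium. None was called lower (all genes 26.1% higher and 30.1% lower). The list left out Dnajb4 (−1.65) and Dnaja4 (−1.61), which heat can also raise and which were called lower. Also left out and called lower were Bag3 (−1.21 ± 0.26), Cryab (−3.65 ± 0.28) and Hspb8 (−1.12 ± 0.27). The cochaperones Stip1 (0.51 ± 0.46) and Chordc1 (0.46 ± 0.28), left out too, were not called. The counts therefore depend on the choice of list. In the 5 mice with both layers 7 of the 10 were higher (all genes 28%), the same count as with mouse as a replicate block (all genes 27.5%). The median difference of the list was 0.74 over 14 samples, against −0.05 over all genes.

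Dnajb1 (HSP40, the inducible partner of HSP70) was at 19.9 to 137 normalized counts in epithelium, with a median of 56.8. In stroma it was at 23.5, 11.1, 7.31, 23.4 and 7.41. Only the epithelium of OF5, at 19.9, fell within the stromal range, and the log2 difference was 2.15 ± 0.48 (edgeR adjusted p = 0.00132). In the 5 mice the epithelium was above the stroma by 4.08 to 9.13 times.

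Hspa1b (chr17:34956436-34959238) and Hspa1a (chr17:34969190-34972156), the heat-inducible HSP70 pair, varied widely between mice. In epithelium Hspa1b was at 789.9 in O1, 731 in Y1, 404 in O2, 135 in O3 and 107 in Y3, and at 97.5, 54.1, 46.0 and 37.1 in YF5, YM4, OF5 and OM8. In stroma it was at 110.3 in O1, 104 in Y1, 68.2 in O2, 47.8 in O3 and 15.4 in Y3. The 5 mice stood in the same order in both layers, and within each mouse the epithelium was above the stroma by 2.82 to 7.16 times. Over 14 samples the log2 difference was 1.95 ± 0.86 and was not called (edgeR adjusted p = 0.0691). In the 5 mice it was 2.66 ± 0.63 (adjusted p = 0.00313), and with mouse as a replicate block 2.52 ± 0.25 (edgeR adjusted p = 5.78e-05).

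Hspa1a was at 252, 223, 129, 41.4 and 31.0 in the epithelium of O1, Y1, O2, O3 and Y3, and at 8.23 to 28.2 in the 4 letter-coded mice. In stroma it was at 44.0, 31.2, 22.3, 17.4 and 8.32 in the same order of mice. Its log2 difference was 1.76 ± 0.88 over 14 samples (edgeR adjusted p = 0.106) and 2.23 ± 0.24 with mouse as a replicate block (adjusted p = 0.000103). The pair shares most of its exon sequence: 66.3% of the 50-base words of Hspa1a and 62.3% of those of Hspa1b occur in other genes, mainly in each other. Hspa1b exceeded Hspa1a in every sample, by 2.63 to 5.58 times in epithelium and 1.85 to 3.33 times in stroma, and the split between them depends on how reads that match both were counted.

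Hsp90aa1, the inducible HSP90 of the cytosol, followed the same mice. It was at 229.8, 347, 178, 119.8 and 84.2 in the epithelium of O1, Y1, O2, O3 and Y3, at 23.0 to 46.5 in the 4 letter-coded mice, and at 33.5 to 59.0 in stroma. The log2 difference was 1.39 ± 0.63 over 14 samples (edgeR adjusted p = 0.0737) and 1.91 ± 0.24 with the replicate block (adjusted p = 0.000211). Hsph1 (HSP105, the inducible member of the HSP110 branch) was at 208, 245, 132, 61.4 and 47.7 in the epithelium of these mice and at 11.0 to 45.2 in the letter-coded mice. In stroma it kept to 41.1 to 72.7. Its log2 difference was 0.58 ± 0.67 over 14 samples (edgeR adjusted p = 0.481) and 1.24 ± 0.39 in the 5 mice (adjusted p = 0.017).

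Hspd1 and Hspe1 form the chaperonin of the mitochondrion. Hspd1 (HSP60) was at 14.1 to 82.4 in epithelium, with a median of 43.0, and at 32.1, 21.5, 24.0, 38.8 and 30.8 in stroma. The log2 difference was 0.64 ± 0.32 over 14 samples (edgeR adjusted p = 0.101) and 1.06 ± 0.16 with the replicate block (adjusted p = 0.000784). Hspe1 (HSP10), read from the same divergent promoter, was at 8.96 to 46.4 in epithelium and 15.5 to 29.3 in stroma, with differences of 0.01 ± 0.31 and 0.39 ± 0.20 that were not called (edgeR adjusted p = 0.989 and 0.132). The difference between the pair's differences was not tested. The constitutive Hspa8 and Hsp90ab1 overlapped between the layers. Hspa8 was at 80.0 to 703 in epithelium and 333 to 474 in stroma, and Hsp90ab1 at 377 to 1811 and 1002 to 1326. Their log2 differences were −0.24 ± 0.41 and −0.31 ± 0.34 over 14 samples, and 0.22 ± 0.22 and 0.16 ± 0.21 with the replicate block. Other genes share 39.4% of the words of Hspa8, 42.1% of those of Hspd1 and 47.5% of those of Hsp90aa1.

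**Figure D3:**
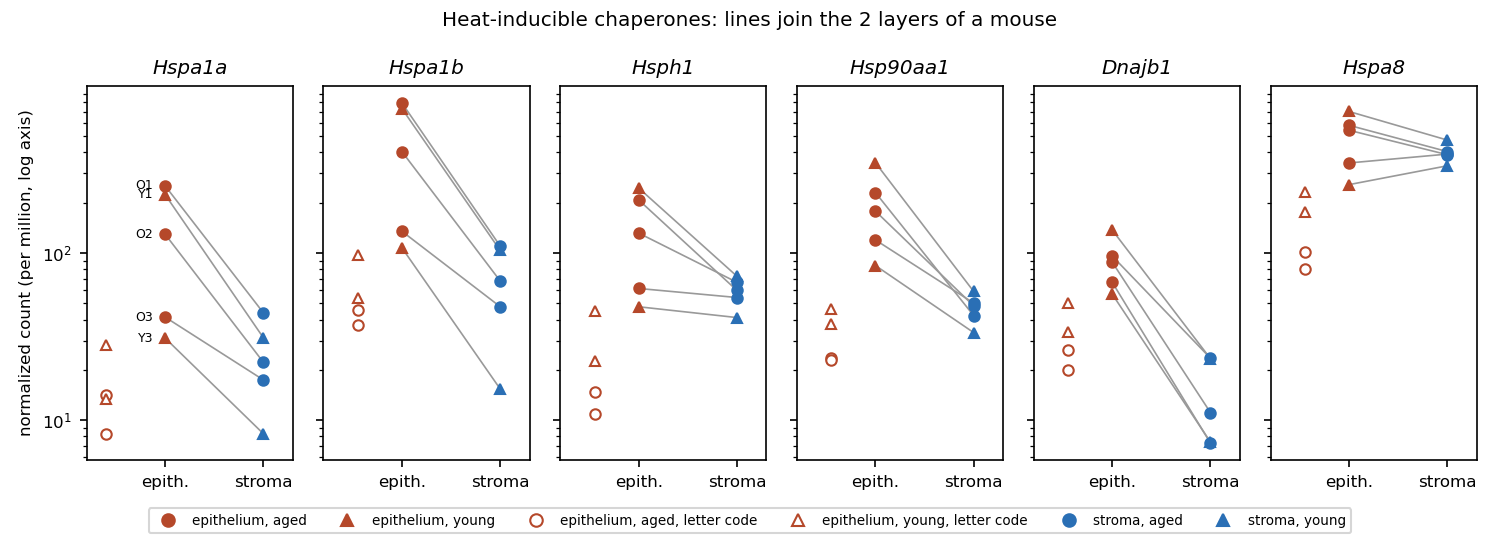
Normalized counts (log axis) of 6 chaperones in epithelium (red) and stroma (blue), with a line for each of the 5 mice with both layers, circles for aged and triangles for young mice, and open symbols at the left for the 4 letter-coded mice. Hspa1b runs from 37.1 to 789.9 in epithelium, and its 5 lines keep their order between the layers.

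Spread among mice was therefore measured for each member, as the SD of log2(normalized count + 0.5) over samples of one layer. Over the 5 epithelial samples that have matched stroma, 11 of 63 members lay above the 95th percentile of the 16791 genes tested. These were Hspa1a (SD 1.38), Hspa1b (1.34), Hsph1 (1.04), Hsp90aa1 (0.79), Dnaja1, Hspa8, Hspb7, Hspb6, Hspa4l, Dnajb1 and Hspe1. The median SD was 0.24 for the members and 0.19 for all genes. Over all 9 epithelial samples 9 of 63 members lay above that percentile, and the medians were 0.57 and 0.43. Hspb6, Hspb7, Hspa4l and Hspe1 were then below it. Dnajc27 and Dnajc9, each with a count of 0 in a letter-coded library, were above it. In stroma 2 members lay above that percentile, and the medians were 0.36 and 0.54. Summed over the 10 HSF1 targets, the level ran from 837 to 2883 normalized counts in the epithelium of these 5 mice (3.45 times) and from 584 to 968 in their stroma (1.66 times). Over all 9 epithelial samples it ran from 366 to 2883 (7.89 times).

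O1, Y1 and O2 held the highest epithelial values of Hspa1a, Hspa1b, Hsph1, Hsp90aa1 and Dnajb1. The sum was 2883 in Y1, 2531 in O1, 1824 in O2, 1026 in O3 and 837 in Y3, so the top mice included a young and an aged one. The same order in both layers was seen for 4 of 63 members (Hspa1a, Hspa1b, Dnaja4 and Hsp90ab1; 6.35%) and for 0.983% of all genes tested. Hspa1a and Hspa1b share most of their exon sequence, so their orders are not separate observations. The order is also the one already described for this pair, so the count adds little. Immediate-early genes, a list of 13 such as Fos, Jun and Egr1, summed to 152, 248, 172, 230.0 and 177 in the epithelium of O1, O2, O3, Y1 and Y3 and did not follow that order. The labels give no time of dissection or peeling, and its part in the spread was not tested.

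**Figure D4:**
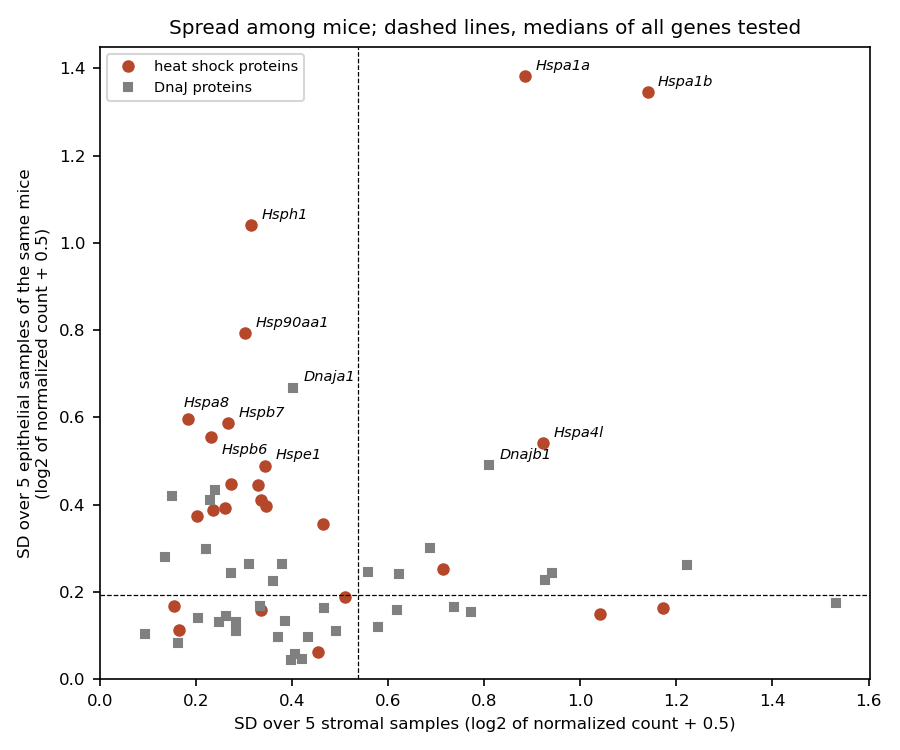
SD of log2(normalized count + 0.5) over the 5 epithelial samples (vertical axis) against that over the 5 stromal samples of the same mice (horizontal axis), with 1 point for each tested member and dashed lines at the medians of all genes tested. Hspa1a and Hspa1b stand at the top, at 1.38 and 1.34, and Hsph1 and Hsp90aa1 vary in epithelium but little in stroma.

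The epithelial libraries differed along the form of the mouse code. In a test of the 5 mice with both layers against the 4 letter-coded mice, with values of these genes already seen, 20 of 62 members were higher in the former (all genes 7.3%) and 0 were lower (all genes 6.73%; edgeR adjusted p under 0.05). DESeq2 called 28 members (all genes 3057 of 15859, either direction). Without OF5 the edgeR count was 13 (all genes 1295 of 17151) and without OM8 it was 9 (all genes 872 of 16950). The 20 included Hsp90aa1 (log2 difference 2.46 ± 0.47), Hspa8 (1.68 ± 0.41), Dnajb1 (1.35 ± 0.28), Hsp90ab1 (1.31 ± 0.18) and Hsp90b1 (1.17 ± 0.21). Of the 8 epithelial markers 6 were called higher too, and their sum, mostly Krt4 and Krt13, was 42165 to 54699.6 in the 5 mice and 17469 to 28407 in the 4. The part of these markers in the difference was not tested. Code form, library depth and the share of CT010467.1 cannot be told apart in these samples.

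Of 10 members with a role in or at the ER, 1 (Hspa5) was higher and 1 (Dnajb14, of the ER membrane) lower in epithelium (all genes 26.1% and 30.1%). The list did not take in Dnajc25, which is thought to sit in the ER membrane. It was called lower in the 5 mice with both layers (−0.77 ± 0.28, edgeR adjusted p = 0.0327) but not over 14 samples. Nor did the list take in Dnajc18, which was called lower without overlap (−1.51 ± 0.25, edgeR adjusted p = 2.75e-05). Hspa5 was at 68.3 to 335 normalized counts in epithelium, with a median of 180.4, and at 90.8, 109.8, 105, 124 and 75.7 in stroma. The groups overlapped, the log2 difference was 0.92 ± 0.33 (edgeR adjusted p = 0.0214), and within the 5 mice the epithelium was above the stroma by 1.81 to 3.69 times. Without the stroma of Y3 the difference was 0.80 and was no longer called (edgeR adjusted p = 0.066). Dnajb14 was at 6.57 to 11.0 in epithelium and 10.8 to 23.5 in stroma (−0.66 ± 0.20, edgeR adjusted p = 0.00842), a call lost without the stroma of O1 (adjusted p = 0.0524) and with the replicate block (adjusted p = 0.0986). Hsp90b1 was at 65.5 to 281 in epithelium and 92.0 to 166 in stroma. Its difference was 0.48 ± 0.32 over 14 samples (edgeR adjusted p = 0.212) and 0.93 ± 0.23 with the replicate block (adjusted p = 0.00912). Dnajc3 gave 0.26 ± 0.21 (adjusted p = 0.291) and 0.55 ± 0.13 (adjusted p = 0.00771, edgeR). Hspa5, Hsp90b1 and Dnajc3 carry the ER stress response element printed above. Dnajb11, for which the element was not found, was also called higher in the 5 mice (0.48 ± 0.19, edgeR adjusted p = 0.0475). With the replicate block it was not called (0.51 ± 0.20, edgeR adjusted p = 0.0671).

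The remaining members of the ER list were not called over 14 samples. They were Dnajb9 (ERdj4, which turns BiP onto IRE1) with a log2 difference of −0.64 ± 0.31, Dnajb11 (ERdj3, a secreted BiP partner) with 0.24 ± 0.21, Dnajc10 (ERdj5, a disulfide reductase) with −0.27 ± 0.19, and Dnajc1, Dnajb12 and Hspa13 with −0.21, −0.24 and 0.01. Among 18 other genes of ER folding and the unfolded protein response, 8 were higher and 3 lower (all genes 26.1% and 30.1%). P4hb (protein disulfide isomerase, log2 difference 2.78 ± 0.22), Calr (calreticulin, 1.37 ± 0.28) and Pdia3 (1.35 ± 0.28) led the higher group. The 3 lower were Ddit3 (the stress transcription factor CHOP, −1.33 ± 0.25), Herpud1 (−0.66 ± 0.21) and Atf6 (−0.40 ± 0.16).

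Of the other HSP70 genes, 4 were lower and 1 higher in epithelium (all genes 30.1% and 26.1%). Hspa12a, a distant HSP70 relative, was at 0.415 to 3.45 in epithelium and at 10.3, 8.34, 5.52, 9.20 and 14.1 in stroma, without overlap (log2 difference −2.39 ± 0.33, edgeR adjusted p = 3.94e-06). Hspa12b, which is known from endothelium, was at 0.235 to 4.15 and 3.47 to 5.70, with a difference of −1.38 ± 0.39 (edgeR adjusted p = 0.00502). The 4 endothelial markers (Pecam1, Cdh5, Kdr and Tek) were all lower in epithelium too, by −2.93 to −1.67, with sums of 10.7 to 22.8 in epithelium and 31.4 to 97.4 in stroma; their part in Hspa12b was not tested. Hspa2, a germ cell HSP70 that other tissues also make, was at 1.17 to 3.47 and 1.56 to 11.5 (−1.27 ± 0.37, edgeR adjusted p = 0.00611), and with the replicate block its adjusted p was 0.161. Hspa14 (HSP70L1, of the ribosome) was higher in epithelium by 0.58 ± 0.24 (edgeR adjusted p = 0.0479) from levels of 2.79 to 6.60 in all samples, a call lost in 16 of 21 alternative settings. In the HSP110 branch, Hspa4 and Hspa4l gave 0.26 ± 0.20 and 0.79 ± 0.41 over 14 samples, and 0.57 ± 0.13 and 1.32 ± 0.27 with the replicate block (adjusted p = 0.00706 and 0.00328, edgeR).

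Of 8 mitochondrial members, the chaperonin pair included, 4 were lower in epithelium and 0 higher over 14 samples (all genes 30.1% and 26.1%). Hspa9 (mortalin, the HSP70 of the matrix) was at 38.4 to 121 in epithelium and 113 to 148 in stroma, with a log2 difference of −0.58 ± 0.24 (edgeR adjusted p = 0.0482) over 14 samples and −0.20 ± 0.14 with the block (adjusted p = 0.276). Dnaja3 (TID1, its main DnaJ partner) gave −0.83 ± 0.23, Dnajc15 (MCJ, at the inner membrane) −1.22 ± 0.31 and Dnajc30 −1.83 ± 0.43, and these 3 were called in both fits. Dnajc11 and Dnajc19 gave 0.19 ± 0.25 and −0.83 ± 0.41 and were not called.

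Of 38 DnaJ members tested, 3 were higher and 13 lower in epithelium (all genes 26.1% and 30.1%). Beside Dnajb1 the higher ones were Dnajc7 (TPR2, which hands clients between HSP70 and HSP90) and Dnajc5 (cysteine string protein, of secretory vesicles). Dnajc7 was at 19.6 to 31.4 in epithelium, with a median of 27.8, and at 15.4, 16.0, 17.2, 13.0 and 17.5 in stroma, without overlap (log2 difference 0.78 ± 0.16, edgeR adjusted p = 0.000273). It was the only 1 of the 63 members whose epithelial samples all lay above the stromal ones (all genes 14.4%), against 11 whose epithelial samples all lay below (all genes 16.9%). Dnajc5 was at 18.7 to 29.2 and 12.1 to 21.0 (0.61 ± 0.16, edgeR adjusted p = 0.0031).

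The 6 widest differences among the lower DnaJ genes were those of Dnajc27, Dnajb5, Dnajc28, Dnajc30, Dnajb4 and Dnaja4. Dnajc27 (RBJ, a small GTPase with a J domain) was at 0 to 3.77 in epithelium and 25.4, 21.7, 19.6, 17.3 and 15.4 in stroma (−3.40 ± 0.32, edgeR adjusted p = 1.62e-08). Dnajb5 was at 6.66 to 10.3 and 72.6, 45.6, 44.6, 55.8 and 50.8 (−2.75 ± 0.15, edgeR adjusted p = 1.09e-11). Both were free of overlap. Dnajc28 gave −2.23 ± 0.30, from 1.04 to 2.76 in epithelium and 4.57 to 13.7 in stroma.

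Dnajb4 and Dnaja4 are partners of cytosolic HSP70 that heat can also raise. Dnajb4 was at 5.83 to 17.6 in epithelium and 44.5, 33.7, 37.2, 35.2 and 29.0 in stroma (−1.65 ± 0.22, edgeR adjusted p = 2.2e-06). Dnaja4 was at 13.4 to 53.1 and 102, 92.0, 75.3, 102 and 71.2 (−1.61 ± 0.27, edgeR adjusted p = 4.07e-05), and 42.7% of its words overlap with Wdr61. Their relatives Dnaja1 and Dnaja2 were not called over 14 samples, at −0.25 ± 0.37 and 0.48 ± 0.23. Dnaja2 was called with the replicate block, at 0.83 ± 0.13 (edgeR adjusted p = 0.000822).

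Of 5 members of the nucleus and ribosome 2 were lower in epithelium (all genes 30.1%), and of 3 members linked to vesicles 1, Dnajc5, was higher (all genes 26.1%). Dnajc21, of ribosome maturation, was at 6.86 to 23.8 in epithelium and 32.8 to 70.5 in stroma (log2 difference −1.25 ± 0.24, edgeR adjusted p = 0.00017). Dnajc2 (MPP11, of the ribosome) gave −0.67 ± 0.20 and was not called with the replicate block (edgeR adjusted p = 0.0567), while the splicing-linked Dnajc8 and Dnajc17 and the histone chaperone Dnajc9 gave −0.09, 0.01 and 0.35 and were not called. Dnajc6 (auxilin, which uncoats clathrin vesicles) was at 1.72 to 6.33 in epithelium and at 5.52, 0, 0, 1.64 and 1.37 in stroma (1.42 ± 0.81, edgeR adjusted p = 0.147), and Dnajc13, of endosomes, gave 0.08 ± 0.15.

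Regulators and cochaperones outside the DnaJ series were split. Of 31 tested, 4 were higher and 11 lower in epithelium (all genes 26.1% and 30.1%). Lower ones were Hsf1 itself (log2 difference −1.05 ± 0.19), Hsf2 (−2.10 ± 0.25), the glucocorticoid-receptor cochaperone Fkbp5 (−1.82 ± 0.20) and the myosin chaperone Unc45b, a muscle gene (−6.01 ± 0.36). Unc45a, its general counterpart (1.66 ± 0.23), Bag4 (1.55 ± 0.51) and the HSP90 partner Cdc37 (1.20 ± 0.21) were higher. Of the 8 subunits of the cytosolic chaperonin TRiC, 2 were higher, Cct8 (0.64 ± 0.26) and Cct5 (0.63 ± 0.24), and 0 lower. In epithelium all 8 were called higher in the 5 mice with both layers than in the 4 letter-coded mice (edgeR, all genes 7.3%). Among relatives that the names did not take in, the J proteins Gak (1.81 ± 0.17) and Sec63 (0.92 ± 0.18) and the ER chaperone Hyou1 (0.94 ± 0.29) were higher in epithelium, and Cryab (−3.65 ± 0.28) and the mitochondrial J protein Hscb (−1.30 ± 0.54) were lower.

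Age made no called difference. In epithelium 0 of 62 tested members differed between 5 aged and 4 young mice, with code form in the model (edgeR adjusted p under 0.05; all genes 0.0126%). At an unadjusted p under 0.05 there was 1 member (all genes 3.21%), Dnajc25, a DnaJ protein thought to sit in the ER membrane. It was at 3.18, 2.86, 2.76, 1.03 and 3.28 in the aged epithelium of O1, O2, O3, OF5 and OM8 and at 3.42, 3.81, 4.98 and 6.89 in Y1, Y3, YF5 and YM4. The groups did not overlap, but Dnajc25 was picked for its small p, so this adds little, and the count in OF5 was 3 reads. The log2 difference, aged minus young, was −0.62 ± 0.29 (unadjusted p = 0.0424, edgeR). DESeq2 and the other settings also called 0 members.

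The direction across members in epithelium leaned to lower values in aged mice, 42 negative and 20 positive, with a median of −0.10 against −0.00 over all genes. The members are not independent of one another. Marker lists also had negative differences, with 0 called: 8 of 8 epithelial markers (median −0.18), 6 of 6 fibroblast markers (median −0.33) and 10 of 10 skeletal muscle markers (median −1.02). Their part in the members' differences was not tested. Hsp90ab1 gave −0.31 ± 0.18, Hspb1 −0.30 ± 0.17, Dnajb1 −0.47 ± 0.27, Hspa8 −0.52 ± 0.39 and Hspa1b −0.33 ± 0.75. For Hspa1b the 5 aged samples ran from 37.1 to 789.9 and the 4 young samples from 54.1 to 731, so each age spanned nearly the whole range.

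In stroma 0 of 68 tested members differed between 3 aged and 2 young mice (all genes 0%), and 2 had an unadjusted p under 0.05 (all genes 3.64%). Hspb2 was at 15.8, 19.2 and 17.6 in aged stroma and 10.3 and 9.34 in young stroma (log2 difference 0.83 ± 0.32, unadjusted p = 0.0284, edgeR). Hspb8 was at 181, 152 and 167 in aged stroma and 126 and 103 in young stroma (0.54 ± 0.23, unadjusted p = 0.0409, edgeR). Neither passed after adjustment. Both were without overlap, but groups of 3 and 2 samples often part by chance, and these members were picked for their small p. The skeletal muscle markers summed to 37883 to 69532 in aged and 48456 to 60663 in young stroma, and Hspb6 and Hspb7 gave 0.13 ± 0.25 and 0.22 ± 0.25. Other marker lists differed more, with 0 called after adjustment. The 5 smooth muscle markers all had positive differences (median 1.56, 4 with an unadjusted p under 0.05) and summed to 812 to 2042 in aged and 301 to 597 in young stroma, without overlap. The 8 epithelial markers were all positive (median 2.21, sums of 52.9 to 456 and 47.3 to 75.2) and the 4 adipocyte markers all negative (median −1.37, sums of 99.4 to 229 and 146 to 528). Their part in the differences of Hspb2 and Hspb8 was not tested. Over the members 41 differences were positive and 27 negative, with a median of 0.05 against −0.01 over all genes. DESeq2 also called 0. Without the stroma of Y1, which left Y3 as the only young sample, 1 member was called, Hspa1b (log2 difference 2.26 ± 0.46, edgeR adjusted p = 0.00297).

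The difference between the ages was then compared between the layers, over the 10 paired samples. Of 69 tested members 0 passed with edgeR (all genes 0%) and 0 with DESeq2 (all genes 62 of 22771). Hspb2 alone had an unadjusted p under 0.05 (1 of 69, all genes 4.3%), with an interaction of −1.13 ± 0.51 (unadjusted p = 0.0468, edgeR). Epithelial Hspb2 rested on at most 0.228 normalized counts in these mice. Without the stroma of O1, 1 member was called, Dnajc6, which had no read in the other aged stromal samples.

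**Figure D5:**
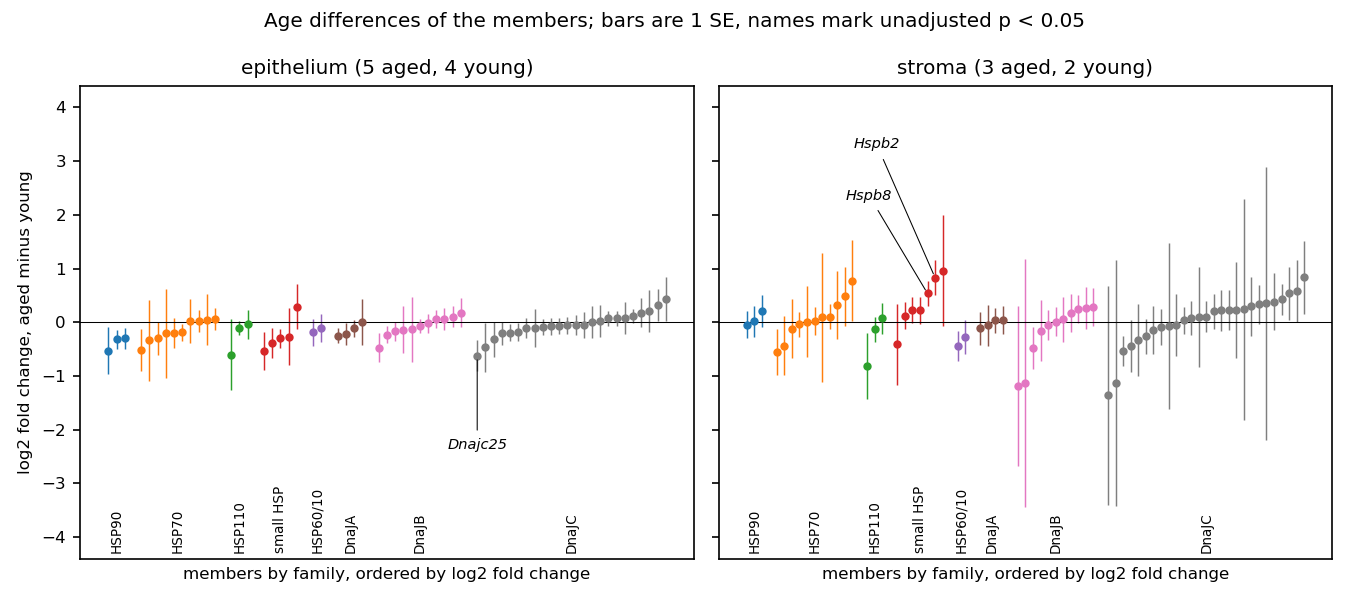
Log2 fold change, aged minus young, with 1 standard error, for each tested member in epithelium (left) and stroma (right), arranged by family and by value. The points scatter about 0 in both layers, and the names mark the 3 members with an unadjusted p under 0.05, Dnajc25, Hspb8 and Hspb2.

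The 9 members too rarely counted to test between the layers were Dnajb3, Dnajb7, Dnajb8, Dnajc12, Dnajc22, Dnajc5b, Dnajc5g, Hspa1l and Hspb9. Their counts over all 14 samples ran from 7 (Hspb9) to 236 (Hspa1l), and no sample was above 3.40 normalized counts. Of the 8 members known mainly from testis, 7 were in this group and only Dnajb13, at 0.536 to 2.81 in epithelium, was tested. Hspa1l lies head to head with Hspa1a and shares 71.4% of its words with other genes, so its few reads are uncertain. A count of 3 corresponds to 0.0868 to 0.174 normalized counts in the samples of the 5 mice and to 0.704 to 1.24 in the 4 letter-coded libraries, which is the limit that a count of 0 sets there.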

How the data were processed

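Polyadenylated RNA from 9 epithelial and 5 stromal samples had been extracted with RNeasy columns and made into libraries with oligo(dT) enrichment. The deposited files hold counts, whole numbers of reads per gene, which the authors obtained by aligning to GRCm38.p6 with Rsubread and counting with featureCounts. The submitters' notes name bcl2fastq and GRCm38. Strand setting, treatment of reads that match several genes and annotation release are not given in the sources used here.

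The test was the quasi-likelihood F test of edgeR 4.0.16 (R 4.3.3), with TMM scaling, filterByExpr with a minimum count of 10, robust dispersions and Benjamini-Hochberg adjustment over all genes tested (threshold 0.05). A standard error (SE, after ±) is the log2 difference divided by the square root of F. Epithelium was compared with stroma over 14 samples, aged with young in each layer, and the age difference between layers in the 5 mice with both. DESeq2 1.42.0, upper quartile scaling, other count filters, single libraries left out and a mouse block were alternatives. Scripts were tested on simulated data. Each sample is a mouse's layer as coded; p-values measure the spread between these samples. Nothing in 20 replicate pairs pointed to a library deposited in duplicate (lowest chi-square per degree of freedom 9.94).

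O1, O2, O3, Y1 and Y3 name the same mouse in both layers, which is where the pairing comes from, and the deviations of the layers of a mouse correlated at 0.0422 to 0.141. The members and lists were chosen with earlier results of these data known. Named with values are all tested heat shock proteins, up to 6 DnaJ genes in each direction with the widest called layer difference, members of the role lists, age differences with an unadjusted p under 0.05, and up to 3 genes a pathway list in each direction. Some genes that a list left out are named beside its count. Gene positions come from GENCODE annotation on GRCm38 and promoters from RefSeq. Coordinates are 1-based. A gene of a pathway list is not reported here.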

Additional observations from a re-analysis of the deposited data

Results flagged for a closer look

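Among 220 groups of 4 to 9 samples tested over 55 members, 15 held a sample set apart from its group by Dixon's criterion, and chance gives about 1 in 20. In epithelium Dnajc10 was at 7.55 normalized counts in OF5 (others 11.3 to 15.5), Dnajc15 at 1.03 in YM4 (others 2.90 to 6.52) and Hspa2 at 1.17 in OM8 (others 2.07 to 3.47). Dnajc27 was at 0 in YM4, Dnajc9 at 0 in YF5 and Hspb11 at 0 in YF5, where the other epithelial samples reached 3.77, 8.71 and 2.06. Hspb3 was at 1.24 in YF5, from 3 counts, apart from all epithelial samples and from the young ones alone.

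Within aged epithelium Dnajc15 was at 3.50 in O1 (others 5.63 to 6.52), Dnajc2 at 9.85 in OM8 (others 15.7 to 18.3), Dnajc25 at 1.03 in OF5 (others 2.76 to 3.28), Dnajc7 at 19.6 in OF5 (others 27.8 to 31.4) and Hspb3 at 0.247 in O3 (others 0). Within young epithelium Dnajc21 was at 9.96 in YF5 (others 22.4 to 23.8). In stroma Dnajc15 was at 4.30 in O3 (others 11.3 to 14.8). Of the 15, 12 lay in the 4 letter-coded libraries, whose counts behind these values were 0 to 57.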

How the results depend on the processing

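The 6 members higher in epithelium became 10 with no filter on low counts, 3 with at least 10 counts in every sample, 18 in the 5 mice with both layers and 16 with the replicate block, and 5 to 10 with 1 library left out (10 without OF5). The 23 lower members stayed within 1.5 times that count. Age calls in stroma, and age by layer, ran from 0 to 1 with 1 library left out, and the 20 calls by code form from 9 to 26. For code form with 1 library left out, all genes gave 872 to 2893 calls in either direction. The replicate block called 0 members for age by layer. The calls of Hspa14, Hspb11 and Hspa9 were lost in 16, 15 and 13 alternatives. Differences that turned sign were not called: in the 5 mice and with the replicate block Dnaja1 (0.18, 0.11), Dnajc8 (0.17, 0.19), Hsp90ab1 (0.18, 0.16) and Hspa8 (0.30, 0.22), and Dnajc8 with no filter (0.095). With at least 10 counts in every sample they were Dnajb11 (−0.075), Dnajc11 (−0.13), Dnajc13 (−0.23), Dnajc3 (−0.058), Hspa4 (−0.064), Hspa13 (−0.32) and Hspe1 (−0.33). With DESeq2 they were Dnajc17 (−0.0653), Hspa13 (−0.0653) and Hspe1 (−0.12), with upper quartile scaling Dnajc13 (−0.00112), Dnajc17 (−0.089), Hspa13 (−0.11) and Hspe1 (−0.12), and without mitochondrial and abundant non-coding genes Hspe1 (−0.00310). With 1 library left out, Dnajb13 (−0.61 to 0.075), Dnajc11 (−0.00994 to 0.57), Dnajc17 (−0.10 to 0.12), Hspa13 (−0.13 to 0.23) and Hspe1 (−0.21 to 0.13) crossed 0. The cause was not tested. Low counts limit the letter-coded libraries.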
